A study of Arabidopsis thaliana with 3 samples.

Results

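Alpha expansins are secreted proteins that loosen the plant cell wall under acid conditions without cutting its polymers, and so let turgor stretch the cell. They form a large gene family in Arabidopsis, and several members are known from expanding leaves: EXPA10 for leaf and petiole growth, EXPA5 for hypocotyl and rosette growth and EXPA1 for guard cells. Their genes share a short coding sequence that is interrupted at conserved places by introns, and an intron that stays in the mRNA usually brings an early stop codon.

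The expansins described here are 8 genes chosen by name: EXPA1 (AT1G69530), EXPA4 (AT2G39700), EXPA5 (AT3G29030), EXPA6 (AT2G28950), EXPA8 (AT2G40610), EXPA10 (AT1G26770), EXPA11 (AT1G20190) and EXPA15 (AT2G03090). All 8 are among the 14496 genes of the deposited table, and they hold 24 of its 62909 alternative splicing events. The study sequenced RNA from untreated wild-type Col-0 plants of Arabidopsis thaliana, in 3 libraries that form 1 group, each from pooled first true leaves of plants grown at 20 degrees Celsius under 16 h of light and 8 h of darkness. No other genotype, age or treatment was compared, and separate plants or plantings behind the pools are not recorded in the labels, so that differences between libraries may be technical. The table gives, for every event and library, the reads of the alternative form and all other reads. The level of an event is its alternative reads in percent of both.

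Of the 24 expansin events, 16 were retained introns (class IR, an intron kept in the mRNA), 5 were segments removed from inside 1 exon (CRIN), 2 were shifted acceptors (ALTA, a changed 3′ end of the intron) and 1 was a shifted donor (ALTD, a changed 5′ end). These readings of the class codes rest on their coordinates. Every removed segment and the shifted donor were in EXPA1, and the shifted acceptors were in EXPA1 and EXPA8. The other 5 classes of the table, which include skipped exons, were not listed for any of the 8 genes. Junctions 1-2 and 2-3 of EXPA15 were not listed with any event. The table lists an event only with at least 1 alternative read in every library, so an unlisted event may be rare rather than absent.

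The libraries held 34587113, 33141594 and 62624801 reads at junctions of neighbouring exons in replicates 1, 2 and 3, and the median junction held 181, 176 and 303 of them. The 4 leaf marker genes fixed for a check of the tissue (RBCS1A, RCA, CA1 and LHCB3) were all listed, at 1341 to 10891 junction RPM (mean reads per listed junction of a gene for every 1000000 junction reads of the library). None of the 4 root hair markers (EXPA7, EXPA18, RHD6, COBL9) and 1 of the 3 flower markers (AG, at 0.181 to 0.520 junction RPM) were listed. A gene without a listed event may still be expressed, so these absences do not show that root hair or flower RNA was missing. No other annotated gene overlaps any of the 8 expansin genes. The 28 pairs of their proteins are 59.1 to 84.3% identical (median 68.5%), and the sources used here do not give how reads that fit several copies were treated.

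The intron positions were shared. In RefSeq's annotation of TAIR10.1, 2 introns of every member lie at the same aligned codon and phase as those of EXPA1, and they are called here the first and the second coding intron. In EXPA1, EXPA4, EXPA5, EXPA6, EXPA8 and EXPA11 these are junctions 1-2 and 2-3, and in EXPA15 they are 2-3 and 3-4. EXPA10 has 2 annotated transcripts that number its introns differently, so its listed junctions 1-2 and 2-3 could not be given positions. The exon before the first coding intron ends in ATGG in all 7 members with an assigned position, while the donors of the second coding intron differ more, and these are shown for that reason. Each window runs from 8 exon bases into 12 intron bases, with the first intron bases in capitals, and is taken from TAIR10.1:
EXPA1 (chr1:26142567-26142586, plus strand): taccgaagGTaaaacctaaa
EXPA4 (chr2:16544864-16544883, minus strand): taccgcagGTacaaatcttg
EXPA5 (chr3:11012247-11012266, minus strand): tatagaagGTacaaaattta
EXPA6 (chr2:12432812-12432831, minus strand): ttccgccgGTaagaagagta
EXPA8 (chr2:16949907-16949926, minus strand): ttccgaagGTccgtttactt
EXPA11 (chr1:6999163-6999182, minus strand): ttccaaagGTcagaactttt
EXPA15 (chr2:917891-917910, minus strand): tacagaagGTaaaacataaa

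All 7 donors began with GT, and none held the full motif GTAAGT, which 9.08% of 136162 annotated nuclear introns hold at their start. EXPA6 matched 5 of its 6 bases, EXPA1, EXPA8, EXPA11 and EXPA15 matched 4, and EXPA4 and EXPA5 matched 3, against a median of 4 over all annotated introns. A match in these letters is a description and not a measure of splicing.

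Read through in frame, each of the 13 listed introns with an assigned coding position meets a stop codon, at intron base 2 at the earliest and at base 72 at the latest. In 3 of them, the second coding introns of EXPA1, EXPA6 and EXPA15, the stop is the TAA that follows the first G of the intron. The second coding introns of EXPA1 and EXPA11 are shown whole as the shortest of the 7 second coding introns, with the first in-frame stop in capitals:
EXPA1 second coding intron (chr1:26142575-26142744): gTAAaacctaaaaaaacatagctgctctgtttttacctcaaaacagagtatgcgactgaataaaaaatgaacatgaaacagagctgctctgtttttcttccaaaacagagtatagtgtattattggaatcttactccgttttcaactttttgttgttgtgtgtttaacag
EXPA11 second coding intron (chr1:6999069-6999174, minus strand): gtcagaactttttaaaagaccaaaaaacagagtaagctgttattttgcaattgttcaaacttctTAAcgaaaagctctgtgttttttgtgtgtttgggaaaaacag

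EXPA1 was the member with the most events and the most reads, and its last listed intron was nearly always kept. It held 10 of the 24 events. At junction 3-4 (chromosome 1, 26143035 to 26143108, 74 nt) the intron was kept in 11610 of 11715 reads in replicate 1, 2978 of 3014 in replicate 2 and 19264 of 19420 in replicate 3. The levels were 99.1%, 98.8% and 99.2%, with a mean of 99.0% ± 0.204 (SD, n = 3). RefSeq annotates this intron in 2 of 5 EXPA1 transcripts, and the other 3 carry its sequence as part of an exon. The kept form is thus the exon of most annotated transcripts, and the class IR describes it against the transcript used for numbering.

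Keeping or removing this intron sets the end of the protein. The kept form reads into the intron and stops after a few codons, as the last 8 exon bases and the intron up to its stop (in capitals) show:
EXPA1 junction 3-4, kept (chr1:26143027-26143051): cttcacaggtgcgcagctacgtTAG
Annotated transcripts with this end encode 250 residues, or 220 where a segment of exon 3 is also removed. Those that remove the intron have their stop codon end at 26143200 and encode 275 or 245 residues.

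The few reads that removed this intron did so in 3 ways. Of the 105, 36 and 156 such reads in replicates 1, 2 and 3, 68, 21 and 96 joined the annotated sites (61.5% ± 3.21 of the removing reads, SD, n = 3). A donor 117 nt upstream, which takes 39 codons out of exon 3 in frame, had 25, 8 and 31 reads (22.0% ± 1.98). An acceptor 3 nt downstream had 12, 7 and 29 reads (16.5% ± 4.40). Set against all reads of the junction, the donor reached 0.213% ± 0.0529 and the acceptor 0.161% ± 0.0657 (SD, n = 3).

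The upstream donor was also used to remove a shorter segment of exon 3 that RefSeq annotates as an intron in 2 of the 5 transcripts. That segment (chromosome 1, 26142918 to 26143007) is 90 nt long, all coding and in frame, and 905, 185 and 1420 reads removed it, or 1.69% ± 0.195 of the gene-wide reads (SD, n = 3). The gene-wide total covers more than 1 junction. This level therefore understates the removal and is not comparable with the shares of junction reads given above. The same donor joined an acceptor 17 nt further on in 52, 10 and 111 reads, which breaks the frame and is in no annotated transcript. A segment that starts 5 nt earlier with GC in place of GT had 1, 2 and 9 reads. The 90 nt form made up 93.1% of the reads of these 3 segments. The sites are shown by windows of 8 exon and 12 intron bases at the donor and of 18 intron and 6 exon bases at the acceptors, with the intron ends in capitals:
Shared donor (chr1:26142910-26142929): ctggcagaGTaactcttacc
Acceptor of the 90 nt segment (chr1:26142990-26143013): acaacgttgctaacgcAGgctggt
Acceptor of the 107 nt segment (chr1:26143007-26143030): ggctggtctttcggccAGaccttc

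The most used removed segment of EXPA1 lay in its 5′ untranslated leader. It spans 89 nt (chromosome 1, 26141920 to 26142008), begins with GT, ends with AG and is an annotated intron in 3 of the 5 transcripts. It was removed in 9017, 2308 and 14833 reads, at 18.6%, 18.5% and 17.97% of the gene-wide reads. The spliced reads of the next intron downstream, junction 1-2, numbered 5188, 1314 and 8050. Reads that removed the leader segment therefore outnumbered them 1.78 ± 0.0558-fold (SD, n = 3) in every library, although the gene-wide level lay under 20% in each. The gene-wide total covers more than 1 junction, so this level understates how often the segment is removed where it can be. A further segment inside exon 2 (chromosome 1, 26142398 to 26142471, 74 nt) rested on 6, 1 and 2 reads.

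**Figure D1:**
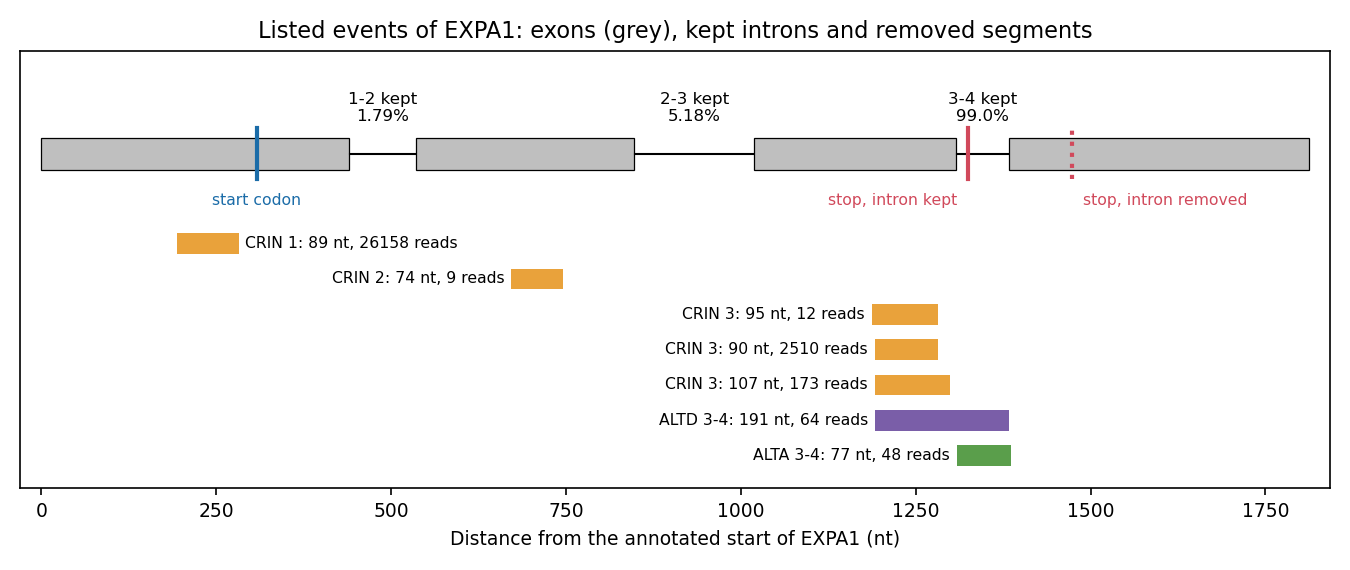
Exons of EXPA1 (grey) in the transcript used for junction numbers, drawn to the ends of the annotated gene, with the mean level of each kept intron above and each removed segment or shifted intron below, by distance from the annotated gene start in nt. Read numbers are sums over the 3 libraries: 26158 for the leader segment and 2510 for the 90 nt segment of exon 3, against 173 or fewer for each of the others.

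EXPA5, known for a role in organ growth, had the most retained introns at both coding positions. Its second coding intron (chromosome 3, 11011848 to 11012258) was kept in 27.9%, 19.9% and 13.9% of junction reads in replicates 1, 2 and 3, a mean of 20.6% ± 6.98 (SD, n = 3), from 241, 65 and 168 retained reads. Of all nuclear retained introns, 15.9% had a mean level at least as high. Its first coding intron (11012551 to 11012902) was kept in 16.7%, 12.3% and 12.4% (13.8% ± 2.51). At both positions EXPA5 stood above every other member with an assigned intron in all 3 libraries.

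EXPA6, EXPA8 and EXPA11 came next at the second coding intron, with means of 10.9 to 12.9%. EXPA6 (chromosome 2, 12432150 to 12432823) had 16.6%, 8.98% and 13.1%, with a mean of 12.9% ± 3.83. EXPA8 (chromosome 2, 16949428 to 16949918) had 18.4%, 6.08% and 8.20% (10.9% ± 6.61), and EXPA11 (chromosome 1, 6999069 to 6999174) had 11.03%, 10.2% and 11.4% (10.9% ± 0.582). EXPA8 was high in replicate 1 alone, while the 3 libraries of EXPA11 lay within 2 points of each other. None of the 3 pairs among these genes was ordered the same way in all libraries.

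EXPA4, EXPA1 and EXPA15 had the lowest means at the second coding intron, though EXPA4 lay above EXPA8 in replicate 2. EXPA4 (chromosome 2, 16544556 to 16544875) had 6.75%, 6.32% and 2.65% (5.24% ± 2.25), and EXPA1 had 8.25%, 3.47% and 3.82% (5.18% ± 2.66). These 2 genes changed order between libraries. EXPA15 (chromosome 2, 917668 to 917902) had 2.22%, 2.50% and 1.68% (2.13% ± 0.417) and lay below every other member in all 3 libraries. Its levels rest on 2, 1 and 4 retained reads, and the exact 95% intervals, which cover counting error only, ran from 0.270 to 7.80%, 0.0633 to 13.2% and 0.460 to 4.25%.

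At the first coding intron the order was EXPA5, EXPA11, EXPA8, EXPA4, EXPA1 and EXPA6. EXPA11 (chromosome 1, 6999497 to 6999580) had 4.14%, 4.06% and 2.70% (3.63% ± 0.811), below EXPA5 and above the other 4 genes in every library. EXPA8 (chromosome 2, 16950232 to 16950330) had 3.67%, 0.677% and 2.24% (2.19% ± 1.497). EXPA4 (chromosome 2, 16545195 to 16545289) had 1.60%, 3.26% and 0.946% from 3 retained reads in each library (1.94% ± 1.19). EXPA1 (chromosome 1, 26142167 to 26142261) had 2.72%, 1.499% and 1.17% (1.79% ± 0.817). EXPA6 (chromosome 2, 12433143 to 12433337) had 1.35%, 0.557% and 1.23% (1.04% ± 0.425). Neighbours from EXPA8 downwards changed order between libraries. EXPA8 also used an acceptor 25 nt upstream of its annotated one (16950232 to 16950256), which adds sequence out of frame, in 5, 1 and 2 reads (0.111% ± 0.1).

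The 2 listed introns of EXPA10, whose positions stay unassigned, were kept at low to moderate levels. Junction 1-2 had 8.57%, 8.77% and 2.76% (6.70% ± 3.41, 20 retained reads) and junction 2-3 had 4.23%, 5.15% and 3.01% (4.13% ± 1.08, 25 retained reads). Both were lowest in replicate 3, and the gene had 57 to 399 reads per junction and library.

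**Figure D2:**
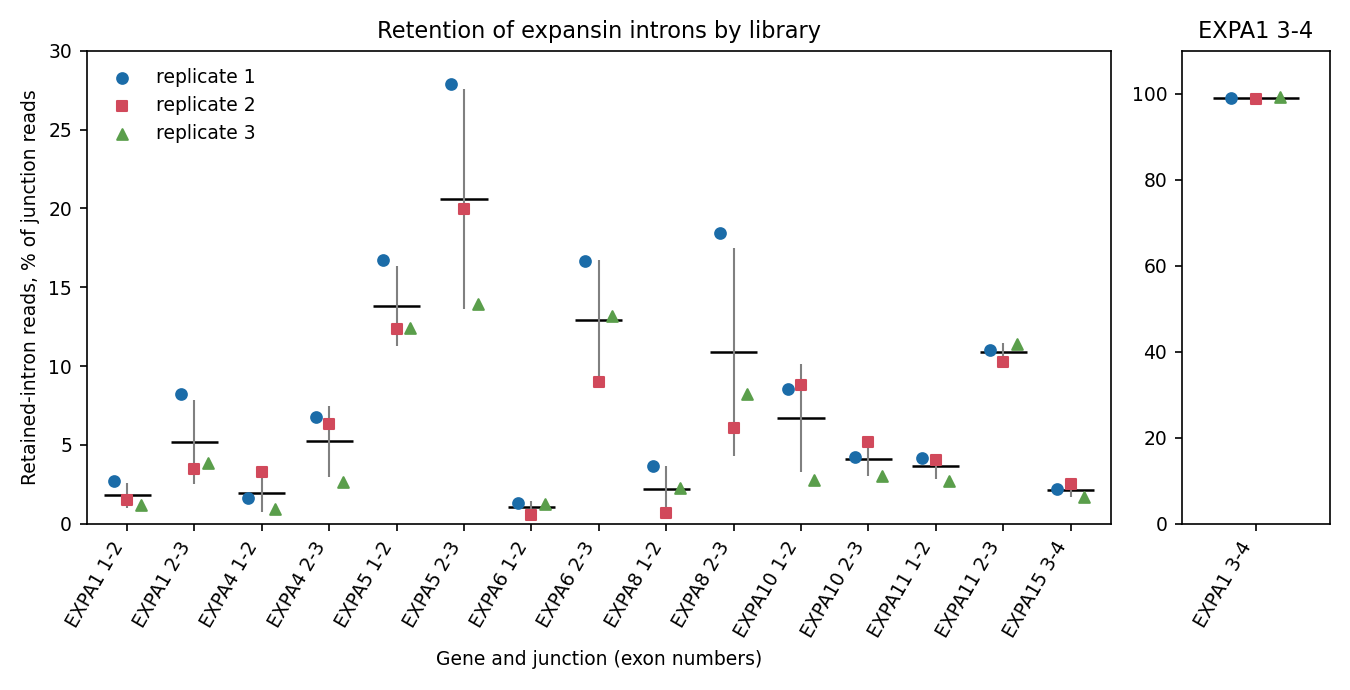
Retained-intron reads in percent of junction reads (vertical axes) for the 16 listed expansin introns in each library (symbols), with the mean (horizontal bar) and SD (grey line, n = 3). EXPA5 2-3 has the highest mean of the left panel, 20.6%, and EXPA1 3-4, drawn on its own axis, lies at 99.0%.

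In every gene where both coding introns could be compared, the second was kept more than the first. This held in 6 of 6 genes and in 3 of 3 libraries for each. How often it holds over all nuclear genes with 2 listed introns was not counted, so it is not shown to be particular to these genes. The difference averaged 11.9 ± 3.43 points in EXPA6, 8.71 ± 5.25 in EXPA8, 7.26 ± 1.29 in EXPA11, 6.76 ± 4.85 in EXPA5, 3.39 ± 1.89 in EXPA1 and 3.30 ± 1.73 in EXPA4 (SD, n = 3). As a ratio of mean levels it ran from 1.49 in EXPA5 to 12.4 in EXPA6. The median difference over the 6 genes was 9.02, 5.79 and 4.31 points in replicates 1, 2 and 3. With 3 libraries, a two-sided exact paired permutation test of 1 gene cannot go below p = 0.25, so none was run. Outside the 8 genes, EXPA3 and EXPB1 also had a higher mean at junction 2-3 than at 1-2 (30.1% and 5.49%, 20.5% and 4.94%). EXLA1 had the opposite order of means (15.5% and 19.3%), and coding positions were not assigned in these genes.

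The second coding intron was also the longer one in each of these genes. Second coding introns were 106 to 674 nt long and first ones 84 to 352 nt. Across the 13 listed introns with an assigned coding position, Spearman's rho between level and length was 0.691 and Pearson's r was 0.670, and rho between level and GC content was -0.264. These introns share the same libraries and mostly the same genes, so the values are a description. The sources used here do not give how reads inside an intron were counted, and the part of length in these levels was not tested.

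**Figure D3:**
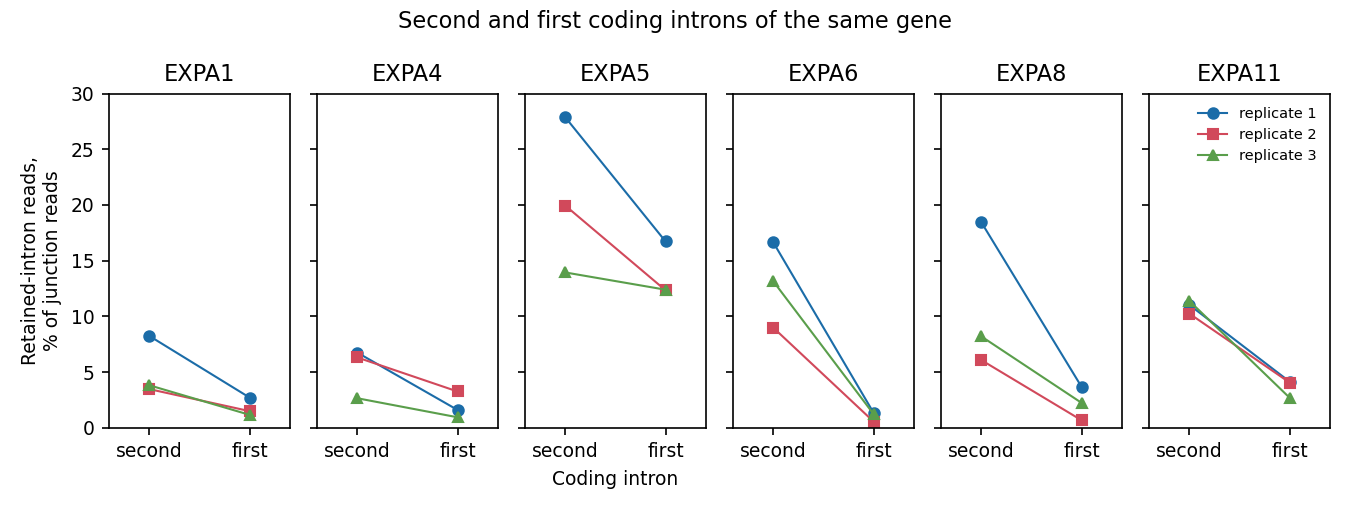
Retained-intron reads in percent of junction reads for the second and the first coding intron of 6 expansin genes, with 1 line per library. All 18 lines fall towards the first intron, most steeply in EXPA6 replicate 1 (16.6% and 1.35%).

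Set beside all introns of the whole table, the expansin introns had a higher median level in replicates 1 and 2 and a lower one in replicate 3. Their mean of the 3 medians was higher by less than its spread over libraries. The median over the 16 introns was 7.499%, 5.62% and 2.89% in replicates 1, 2 and 3 (5.33% ± 2.32, SD, n = 3), and that over all 43194 nuclear retained introns was 4.23%, 3.53% and 4% (3.92% ± 0.355). With at least 10 retained reads in each library the order of the medians turned round, at 8.52% ± 2.37 over 11 expansin introns and 11.3% ± 0.844 over 13142 nuclear ones. Of the 16, 6 reached 10% and 1, EXPA1 3-4, exceeded 50%. The lowest of these 6 was EXPA11 2-3 at 10.9%, and 26.9% of all nuclear retained introns had a mean level at least as high. For EXPA1 3-4 that share was 3.07%.

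Retention in several expansins differed between the 3 libraries by more than read-counting error. A chi-square test of equal levels, adjusted by Benjamini and Hochberg over all nuclear events, called 6 of the 16 expansin introns at 0.05, where 12.1% of all nuclear retained introns were called. Among introns with at least 10 retained reads in each library these calls, still adjusted over all events, took in 6 of 11 in expansins and 23.3% of all. Adjusted anew over events with that many reads, the test called 7 of 11 in expansins, EXPA4 2-3 added, and 27.5% of all such introns. Because the test allows for read sampling alone, ordinary variation from library to library is among what it calls. In the chi-square test the called introns were junction 2-3 of EXPA8 (adjusted p = 7.99e-57), EXPA1 (1.73e-44), EXPA5 (6.62e-12) and EXPA6 (4.99e-06), and junction 1-2 of EXPA1 (1.27e-08) and EXPA8 (6.09e-07). These 6 had 189 to 1273 retained reads over the 3 libraries, while EXPA5 1-2 (289), EXPA11 2-3 (358) and EXPA1 3-4 (33852) were not called. More reads let the test call smaller differences. A floor of 10 reads does not match depth to all nuclear introns, so the part of depth in these shares was not tested.

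All 6 called introns were highest in replicate 1, but the share of all called nuclear introns that were highest there was not counted. Over the 16 introns, 10 were highest in replicate 1 and 8 lowest in replicate 2, where 42.2% and 39.7% of all nuclear retained introns were. With at least 10 retained reads in each library, 7 of 11 were lowest in replicate 2, where 41.7% of all such introns were. Without replicate 1 the chi-square test called only junctions 2-3 of EXPA6 (adjusted p = 0.0130) and 1-2 of EXPA8 (0.00346). The calls over all nuclear retained introns fell likewise, from 12.1% to 4.29% without replicate 1. They were 6.88% without replicate 2 and 7.26% without replicate 3, so replicate 1 weighed most over the whole table too. The calls at EXPA1 1-2 (0.768), EXPA1 2-3 (0.865), EXPA5 2-3 (0.141) and EXPA8 2-3 (0.0852) were lost, all by the same chi-square test. Without replicate 3 the calls at EXPA1 1-2 (0.113) and EXPA5 2-3 (0.0732) were lost. Over the alternatives tried, the adjusted p of the chi-square or G test ran from 5.10e-45 to 0.865 for EXPA1 2-3, from 2.32e-57 to 0.0852 for EXPA8 2-3, from 2.02e-12 to 0.141 for EXPA5 2-3 and from 3.98e-09 to 0.768 for EXPA1 1-2. For EXPA6 2-3 it ran from 1.64e-06 to 0.0319 and for EXPA8 1-2 from 6.78e-08 to 0.0199.

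None of the 8 other expansin events was called, where 5.57% of all nuclear events that are no retained introns were, and 10.1% of all nuclear events. With so few events, 0 calls say little, and 2 of them had an unadjusted p under 0.05 in the chi-square test. By the chi-square test these 2 were the leader segment of EXPA1 (adjusted p = 0.0916) and its 90 nt segment in exon 3 (0.0710). The 90 nt segment was called by the chi-square test when only events with at least 10 reads in each library entered (adjusted p = 0.0381). The kept intron at EXPA1 3-4 was not called by the chi-square test either (adjusted p = 0.320). Whether these differ from the called introns in how much they vary was not tested.

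The 8 genes also had fewer junction reads in replicate 2 than in either other library. Junction RPM averages over the listed junctions of a gene and so is not a count of its transcripts. EXPA1 had 244, 63.4 and 219.7 junction RPM in replicates 1, 2 and 3. EXPA8 had 81.1, 51.8 and 75.0, EXPA6 had 38.4, 30.2 and 43.3, and EXPA11 had 22.6, 19.7 and 29.6. Replicate 2 was the lowest library for each of these genes, and its gap to the others was the widest in EXPA1 among these 4.

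In the less covered members replicate 2 was again the lowest library. EXPA5 had 21.5, 9.57 and 19.1 junction RPM, EXPA4 had 6.13, 4.25 and 7.04, EXPA10 had 4.25, 2.32 and 4.92, and EXPA15 had 2.60, 1.21 and 3.8. In all 8 genes, and at all 16 of their listed junctions, replicate 2 was lowest, where 33.5% of 14108 nuclear genes with a listed junction and 31.4% of 46303 junctions were. Of the 4 leaf markers, RBCS1A, RCA and CA1 were also lowest in replicate 2, at ratios of 0.906, 0.935 and 0.847 to replicate 1, while LHCB3 was highest there, at 1.26. The part of tissue make-up or library quality in the expansin values was not tested. In bulk tissue, fewer cells that express a gene and less RNA per cell cannot be told apart.

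**Figure D4:**
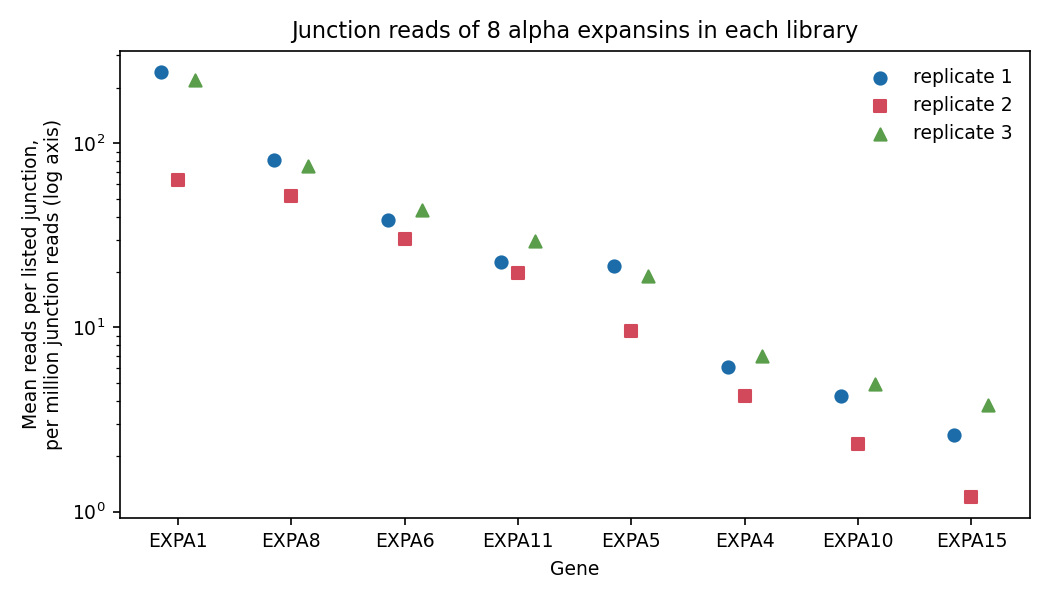
Junction RPM (log axis) of the 8 expansins in each library. Replicate 2 (squares) is the lowest point for every gene, from 63.4 in EXPA1 to 1.21 in EXPA15.

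The ratio of replicate 2 to replicate 1 was 0.260 in EXPA1 and at most 0.873, in EXPA11, with a median of 0.593 over the 8 genes and 0.992 over all genes. The ratio of replicate 2 to replicate 3 ran from 0.289 in EXPA1 to 0.696 in EXPA6, with a median of 0.553 over the 8 genes and 1.06 over all. Of all genes, 0.525% had a ratio to replicate 1 as low as that of EXPA1, and 0.198% a ratio to replicate 3 as low. For EXPA6 and EXPA11, 21.5% and 32.6% of genes were at or below their ratio to replicate 1, and 7.49% and 6.04% at or below their ratio to replicate 3. Replicate 2 is 1 library, so this is a description with no test.

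**Figure D5:**
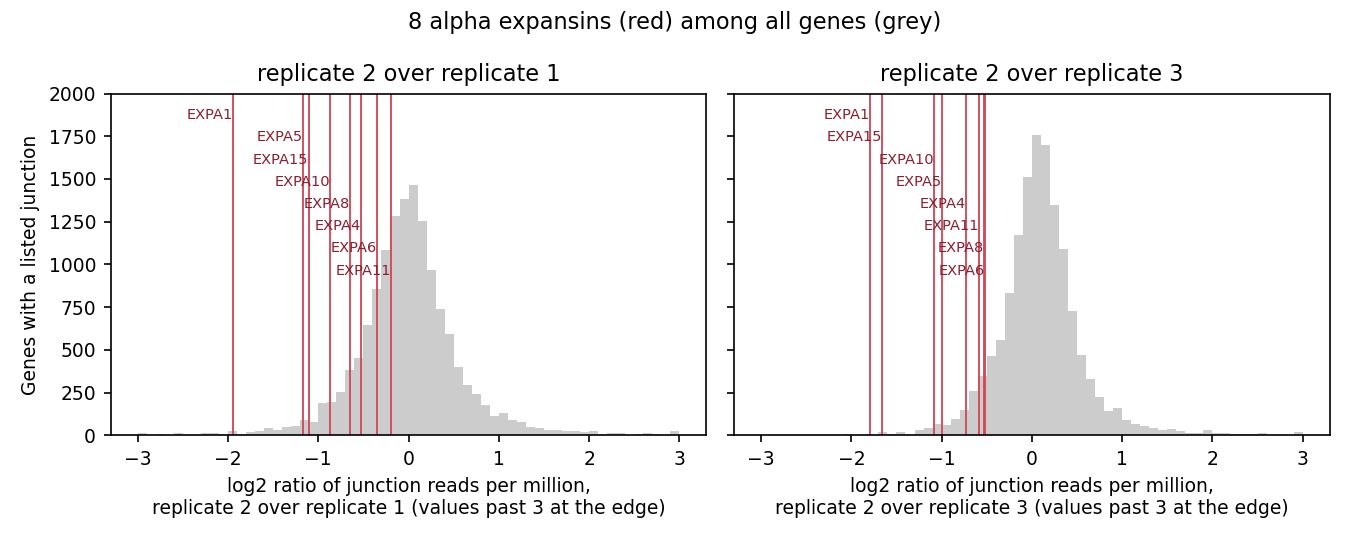
Distribution over 14108 genes of the log2 ratio of junction RPM in replicate 2 to replicate 1 (left) and to replicate 3 (right), with the 8 expansins as red lines. All 8 lie below 0 in both panels, and EXPA1 is farthest out.

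Other cell wall genes did not all follow this order of libraries. Of 17 further alpha expansins, 5 were listed (EXPA3, EXPA9, EXPA13, EXPA14 and EXPA16), and 4 of the 5 had their lowest junction RPM in replicate 2. EXPA16 was the exception with 1.04, 6.88 and 1.60 in replicates 1, 2 and 3. Of 10 beta expansins and expansin-like genes, EXPB1, EXPB3 and EXLA1 were listed. EXPB1 and EXPB3 were lowest in replicate 2, while EXLA1 had 2.14, 7.23 and 2.47. Among xyloglucan endotransglucosylase/hydrolases, which cut and rejoin wall xyloglucan, 19 of 33 were listed and 6 of the 19 were lowest in replicate 2, a share near the 33.5% of all genes. The primary wall cellulose synthases CESA1, CESA3 and CESA6 were all listed and none was lowest there.

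Retention in these other wall genes is given without a match for read depth. An intron is listed only with a retained read in every library, so genes with few reads list mainly higher levels. The listed intron of EXPA14 had 5, 2 and 10 retained reads, for example. The medians below therefore depend on depth too, and they cover listed genes only. The 16 introns of the 8 genes had a median of mean levels of 5.21%, and the 6 listed introns of the other alpha expansins one of 14.04%. EXPA3 kept 5.49% ± 1.58 at junction 1-2 and 30.1% ± 10.4 at junction 2-3 (SD, n = 3). Its levels at 2-3 were 41.4%, 20.8% and 28.1% (adjusted p = 0.000153 in the chi-square test). The 7 introns of the beta and expansin-like genes had a median of 15.5%. EXLA1 was highest in replicate 2, with 5.56%, 41.0% and 11.2% at junction 1-2 (adjusted p = 3.51e-10 in the chi-square test). The 40 listed introns of the xyloglucan enzymes had a median of 6.34%, and 2 of them reached 50%. The 20 of the cellulose synthases had a median of 0.512%.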

How the data were processed

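The deposited table holds raw read counts made by the authors, in 6 columns: reads of the alternative form and other reads for each event in each of 3 libraries. Per the submitters' processing notes, CASAVA 1.8.2, GSNAP and the build TAIR10 were used; the sources used here do not give the tool that classified events or the strandedness. DNase-treated total RNA entered TruSeq library preparation, per the labels' protocols.

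Events at 1 junction share 1 total, and removed segments share a gene-wide total, in every case checked. Coordinates were set against the RefSeq annotation of TAIR10.1, where 99.7% of 13799 shifted sites abut an exon end of their gene. Introns were taken from the transcript that best fitted the listed sites. Proteins were aligned with biopython 1.88 (gap opening 11, extension 1). Levels are means ± SD over libraries. Equal levels were tested by Pearson chi-square over all 62849 nuclear events (scipy 1.17.1). The test was run on simulated reads with planted changes and read sampling alone. Its error rate under ordinary variation between libraries was not tested. All listed events of the 8 genes are named. The members and lists were chosen with earlier results of these data known. Intervals are exact Clopper-Pearson and cover counting error only.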

Additional observations from a re-analysis of the deposited data

How the results depend on the processing

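How far the values moved depended on the setting. Leaving out 1 of 3 replicates cannot move a mean level by as much as its SD, so the SD cannot flag such a move. EXPA8 2-3, at 10.9% over all 3 libraries, was 7.14%, 13.3% and 12.3% without replicates 1, 2 and 3. The median level of the 16 introns moved from 5.33% to 8.52% with at least 10 retained reads in each library, and leaving out 1 replicate gave 4.25 to 6.56%. The median difference of second and first coding introns was 5.05 to 7.41 points with 1 replicate left out, against 6.37. Of the 24 expansin events, 6 were called in all libraries, where 10.1% of all nuclear events were. Without replicates 1, 2 and 3 the calls numbered 2, 6 and 4, where 3.25%, 5.88% and 5.97% of all were called. With at least 10 reads and the adjustment over those events alone, 8 of 14 were called, where 23.7% of all such events were. This added EXPA4 2-3 (adjusted p = 0.0479, chi-square test) and the 90 nt segment of EXPA1 (0.0381). Over the 62849 nuclear events, calls numbered 2042 to 3755 with 1 replicate left out, against 6336, and 3637 at an adjusted p of 0.01. With at least 10 reads they numbered 4327 of only 18254 events, so this count is not comparable with the 6336. Counted over reads that no listed event claims, 3 levels moved beyond their SD: EXPA1 3-4 kept (99.4%), its donor (26.3%) and its acceptor (21.1%). For the donor and acceptor few reads remain in that total, by construction. Scaling by median-of-ratios size factors, chosen after seeing the data, left all 8 genes lowest in replicate 2, as were 39.3% of all genes. No paired analysis was possible because the samples form 1 group, so that replicate numbers pair nothing; introns of 1 gene were compared within each library. Levels of EXPA15, EXPA4 and EXPA10 rest on few reads.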

Other observations

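Among the xyloglucan endotransglucosylase/hydrolases, chosen here after their values were seen, single genes differed more between libraries than any of the 8 expansins. XTH22, also known as TCH4, a touch-induced gene, had 2.98, 48.2 and 9.44 junction RPM in replicates 1, 2 and 3. XTH23 had 0.0578, 1.33 and 0.160, and XTH25 had 0.289, 1.48 and 0.319, from 2, 44 and 10 junction reads in XTH23 and 10, 49 and 20 in XTH25. XTH31 had the opposite order, with 60.1, 10.2 and 32.8, and so was low in replicate 2 like EXPA1. These are values of 1 library against 2, with no test, and what sets replicate 2 apart was not tested.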
